A study of Homo sapiens with 12 samples.

Results

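The 3 libraries of HEK293T cells transfected with si-snaR-A#1 (siRNA 1) were set against the mean of the groups given si-snaR-A#2 (siRNA 2) or si-snaR-A#3 (siRNA 3), which hold 6 libraries. These 9 libraries are all of the snaR-A siRNA libraries among the 12 of the series, chosen by their labels and not by any measured value. HEK293T is a human embryonic kidney cell line, and every group received 12.5 nM siRNA by lipid transfection for 48 h and had 3 replicates. The 3 scramble siRNA libraries, transfected in the same way, were outside the contrast. Their values stand beside some of the named genes as the background. Each group is thus a transient treatment of 1 cell line.

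snaR-A is a short noncoding RNA made by RNA polymerase III from a family of near-identical gene copies. In a small interfering RNA duplex, the guide strand is loaded into an Argonaute protein and pairs with its target, which is then cut, while the passenger strand is normally discarded. Positions 2 to 8 of a guide, its seed, can also pair with short matching sites in the 3′ UTRs of other mRNAs, and microRNAs lower their targets through such sites. The contrast therefore asks which mRNAs differ between duplexes that share a target, and the seeds of those duplexes are part of its description.

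The 3 siRNAs are directed at overlapping stretches of snaR-A. All 14 snaR-A genes that RefSeq places on chromosome 19 hold an exact match to each of them, and none matches the scramble strand. The window of SNAR-A1 that holds all 3 targets is shown because it fixes the seeds. It is bases 84 to 113 of the 122-base gene (hg38, chr19:47918512-47918541, plus strand), with the bases under any of the 3 siRNAs in capitals.

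SNAR-A1 window: agccTGGTCCACATGGGTCGGAAAAAAgga

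The target of siRNA 1 ends 3 bases further 3′ than those of siRNAs 2 and 3, at base 110 of SNAR-A1 rather than at base 107. The guides below are the complements of the matched hg38 bases, written as RNA from 5′ to 3′ with the seed in capitals.

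si-snaR-A#1 guide: uUUUUUCCgacccaugugg
si-snaR-A#2 guide: uUUCCGACccauguggacc
si-snaR-A#3 guide: uUUCCGACccauguggacca

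The last 2 guides have 1 seed in common and the seed of siRNA 1 differs from it, so the contrast sets the 2 seeds apart. A 3′ UTR site of the siRNA 1 guide is the 7-base word GGAAAAA, and a site of the other guide is GTCGGAA. Both words were searched on the mRNA strand only.

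Library totals were between 120.37 and 180.11 M counts. On the first principal component the siRNA 1 libraries lay between 36.7 and 44.7 and the other 9 between -17.5 and -7.1. The 3 mitochondrial shares with siRNA 1 were between 3.66% and 4.53%, and those of the 6 others between 4.06% and 5.83%. snaR-A itself has no gene ID in the table, so its depletion could not be checked in these libraries. Genes that HEK293T is known to express (10 tested, among them VIM, KRT8, KRT18 and CDH2) summed to between 1132 and 1281 CPM (counts relative to a library's scaled total) with siRNA 1, to between 1472 and 1872 in the 6 others and to between 1319 and 1419 in scramble. Markers of immune cells (5 of 9 tested) summed to at most 2.63 CPM in a library, and those of endothelial cells (3 of 7) to at most 2.29 CPM. Fibroblast markers (7 of 8) summed to between 34.6 and 41.8 CPM in all 12 libraries, with COL1A1 at 22.6 ± 0.299 CPM with siRNA 1 (SD, n = 3). Of these 7, 3 were under 1 CPM in all 12 libraries. At an edgeR adjusted p under 0.05, 3 were higher and 3 lower in the contrast, and the median log2 fold change was -0.36. The part of other cells in the results was not tested, and in bulk libraries fewer cells of a type and less RNA per cell cannot be told apart.

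Of 21999 genes tested, 11433 (52.0%) were called at an edgeR adjusted p under 0.05 in the contrast. With siRNA 1, 5827 genes (26.5%) were higher and 5606 (25.5%) were lower than in the mean of the other siRNAs. Over 2-fold, 1126 genes (5.12%) were higher and 382 (1.74%) lower. Among called genes, 8949 (40.7% of those tested) had all 3 siRNA 1 libraries on the same side of all 6 others. Because a difference from 2 siRNAs can come from either side, a gene was counted as particular to siRNA 1 when it was also called in the same direction against siRNA 2, against siRNA 3 and against scramble, with its 3 libraries beyond all 9 others. By this rule 2753 genes (12.5%) were particular and higher and 3084 (14.0%) particular and lower.

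The largest falls among well-expressed genes were in ERAP2, PCK1 and MARCKS. In protein-coding genes averaging at least 5 CPM that were particular to siRNA 1, the 12 largest falls ran from 2.90-fold to 5.54-fold. ERAP2 (ENSG00000164308, chromosome 5, 96875986 to 96919703), a peptidase of the endoplasmic reticulum that trims peptides for antigen presentation, had 3.48, 3.58 and 3.17 CPM in the siRNA 1 libraries. Its levels were 17.9, 18.1 and 18.5 CPM with siRNA 2, 19.3, 19.1 and 20.6 CPM with siRNA 3, and 14.1, 15.4 and 14.3 CPM in scramble. The 3 siRNA 1 libraries did not come near any other library, and the log2 fold change was -2.47 (SE 0.06, edgeR adjusted p 4.6e-11). PCK1 (ENSG00000124253, chromosome 20), the cytosolic enzyme that commits carbon to gluconeogenesis, had 4.65, 4.92 and 4.13 CPM with siRNA 1. The 6 other siRNA libraries held between 15.2 and 26.1 CPM of PCK1, and scramble between 13.8 and 15.2 CPM. The log2 fold change of PCK1 was -2.16 (SE 0.09, edgeR adjusted p 1.9e-09).

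MARCKS (ENSG00000277443, chromosome 6), a membrane protein that binds actin and is phosphorylated by protein kinase C, is far more abundant. It had 152.9, 158.7 and 136.4 CPM with siRNA 1, between 483.7 and 523.4 CPM in the 6 other siRNA libraries, and between 358.2 and 392.9 CPM in scramble. It fell by 1.75 on the log2 scale (SE 0.05, edgeR adjusted p 2.0e-10), and the scramble libraries lay between the 2 sides. PHYH (ENSG00000107537, chromosome 10), a peroxisomal enzyme of fatty acid alpha-oxidation, had 8.69, 10.6 and 9.03 CPM with siRNA 1 and 31.5 ± 1.80 CPM in the 6 others (SD, n = 6), the same as the scramble mean of 31.5 ± 1.79 (SD, n = 3). Its log2 fold change was -1.73 (SE 0.07, edgeR adjusted p 1.6e-09). SMIM30 (ENSG00000214194, chromosome 7), which encodes a small membrane protein, had 24.4, 25.4 and 23.2 CPM with siRNA 1. It had 68.4 ± 0.277 CPM with siRNA 2 and 85.4 ± 2.99 CPM with siRNA 3 (SD, n = 3 each), so the 2 reference siRNAs themselves stood apart for this gene, with siRNA 1 far below both.

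The next falls were in regulators of signalling, transcription and RNA processing. RAP1A, a Ras-family GTPase of cell adhesion, fell to 36.8 ± 1.89 CPM from 115 ± 1.58 CPM (SD, n = 3 and 6). An SD over the 6 libraries, here and below, spans 2 siRNAs and so holds any difference between them. MXI1, which competes with MYC for its partner MAX, fell to 36.1 ± 1.58 from 111 ± 10.4 CPM. PTBP3, a splicing regulator of the polypyrimidine tract binding family, fell to 64.8 ± 4.13 from 198 ± 11.3 CPM. IRF2, a transcription factor of the interferon regulatory family, fell to 4.04 ± 0.160 from 12 ± 0.590 CPM, and PIP4P2, a phosphoinositide phosphatase, to 4.76 ± 0.333 from 14.0 ± 0.574 CPM. RPN2, a subunit of the complex that attaches N-glycans in the endoplasmic reticulum, fell to 77.8 ± 4.83 from 226 ± 5.87 CPM. Log2 fold changes of these 6 genes were between -1.65 and -1.54, with SE from 0.04 to 0.06 and edgeR adjusted p of at most 1.3e-09. The gene ENSG00000267059 on chromosome 19 completed the 12, at 2.65 ± 0.563 against 7.76 ± 0.571 CPM, and its exons overlap those of MBD3 and UQCR11, so its counts are uncertain. Exons of MXI1, PIP4P2 and RPN2 also overlap another annotated gene.

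**Figure D1:**
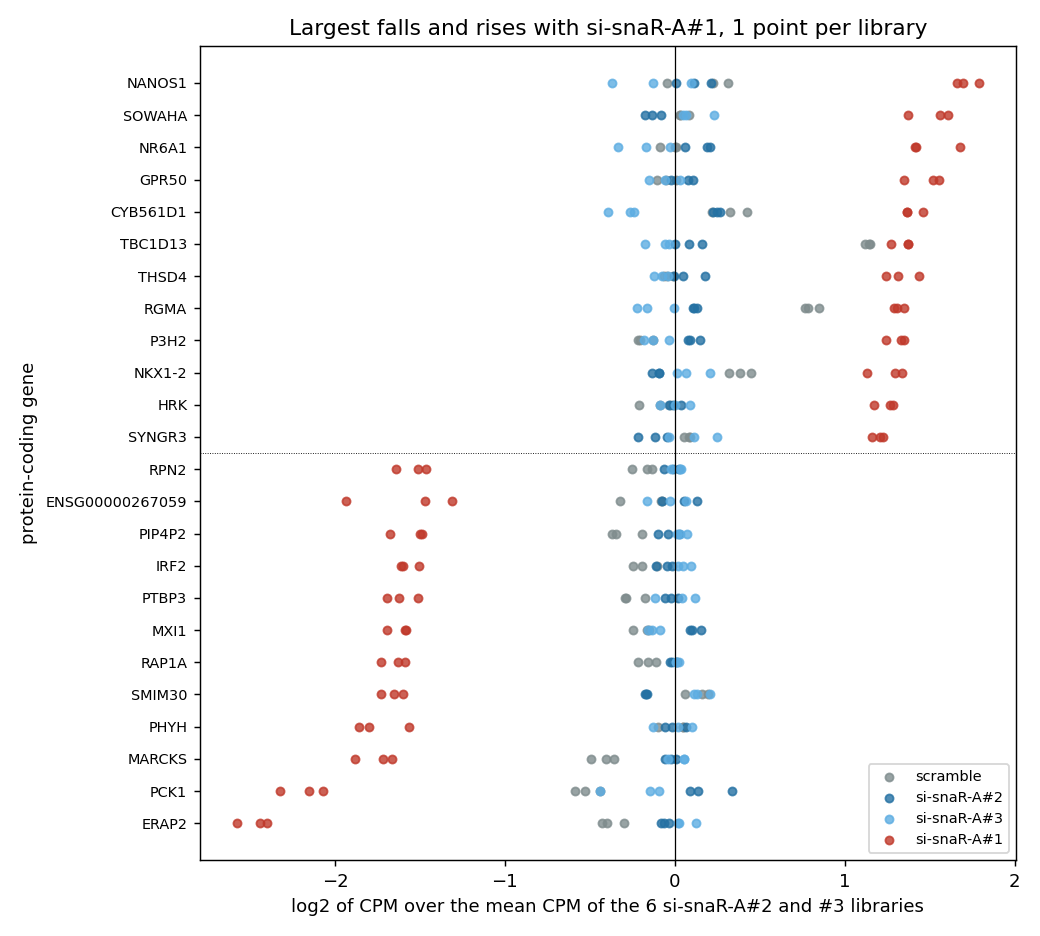
Levels of the 12 largest falls and the 12 largest rises in single libraries, as the log2 of CPM over the mean CPM of the 6 siRNAs 2 and 3 libraries (x axis), 1 row per gene and 1 point per library. The siRNA 1 points lie apart from all 9 other points in every row, which the choice of genes required, and the scramble points of TBC1D13 and RGMA lie nearer to siRNA 1 than to the other siRNAs.

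The 3′ UTRs of these genes were then searched for the seed sites. Of the 12 largest falls, 10 hold at least 1 site of the siRNA 1 guide and 9 of them hold its 8-base form, in which an A follows the word. Of the 12 largest rises, 1 gene (HRK) holds a site. For comparison, the word is in 28.5% of the 3′ UTRs of protein-coding genes tested (4274 of 15005) and in 30.8% of those with a mean of at least 5 CPM. PTBP3 has 7 sites, MXI1 5, MARCKS 4, PCK1 and RAP1A 3 each, SMIM30, IRF2 and PIP4P2 2 each, and PHYH and RPN2 1 each. ERAP2 and ENSG00000267059 have none. Examples of 27 bases are printed from the mRNA strand of GENCODE 44 transcripts (hg38), with the word that pairs with the seed in capitals, so that its surroundings can be compared between genes that fell together.

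PCK1 site: actacttcttGGAAAAAaattacaaaa
MARCKS site: gaaggaaagaGGAAAAAagaaaaaaca
PHYH site: ttgctttaatGGAAAAAaaaaacagta
SMIM30 site: ttatctctagGGAAAAAacatttagaa
RAP1A site: gtcttttataGGAAAAAaactgggata
RPN2 site: gaagaaaaatGGAAAAAaaaaacttta
IRF2 site: caaatctaagGGAAAAAgccttgacaa

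In the first 6 the word is followed by an A and in IRF2 by a G. The windows lie at chr20:57566413-57566439 on the plus strand for PCK1, chr6:113861154-113861180 on the plus strand for MARCKS and chr10:13278106-13278132 on the minus strand for PHYH. They lie at chr7:113116897-113116923 on the minus strand for SMIM30, chr1:111712962-111712988 on the plus strand for RAP1A, chr20:37241388-37241414 on the plus strand for RPN2 and chr4:184388636-184388662 on the minus strand for IRF2. All are in the 3′ UTR exon sequence of the canonical transcript. The word of RPN2 starts 82 bases into a 3′ UTR of 304 bases and that of PHYH 178 bases into one of 502, whereas the PCK1 word printed starts 618 bases into one of 2317.

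Across all genes, mRNAs with a site were lower with siRNA 1 more often than mRNAs without. Of the 4274 with a site, 2044 (47.8%) were lower and 773 (18.1%) higher, and of the 10731 without, 2876 (26.8%) were lower and 3324 (31.0%) higher. The median log2 fold change was -0.16 with a site and 0.04 without, a shift of -0.19, and in the single siRNA 1 libraries this shift was between -0.20 and -0.19. Against siRNAs 2 and 3 taken alone the shift was -0.19 and -0.19, and against scramble -0.16. The share of mRNAs with a site increased with the size of the fall. It was 41.5% among the 4920 genes called lower, 60.2% among the 256 lower over 2-fold, and 83.3% (120 of 144) among those of the 256 with a mean of at least 5 CPM. In the other direction it was 18.9% among the 4097 called higher, 19.2% among the 400 higher over 2-fold and 16.7% (8 of 48) among those with a mean of at least 5 CPM. These are descriptions of the contrast with no test, and whether the siRNA acts through the sites was not tested.

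**Figure D2:**
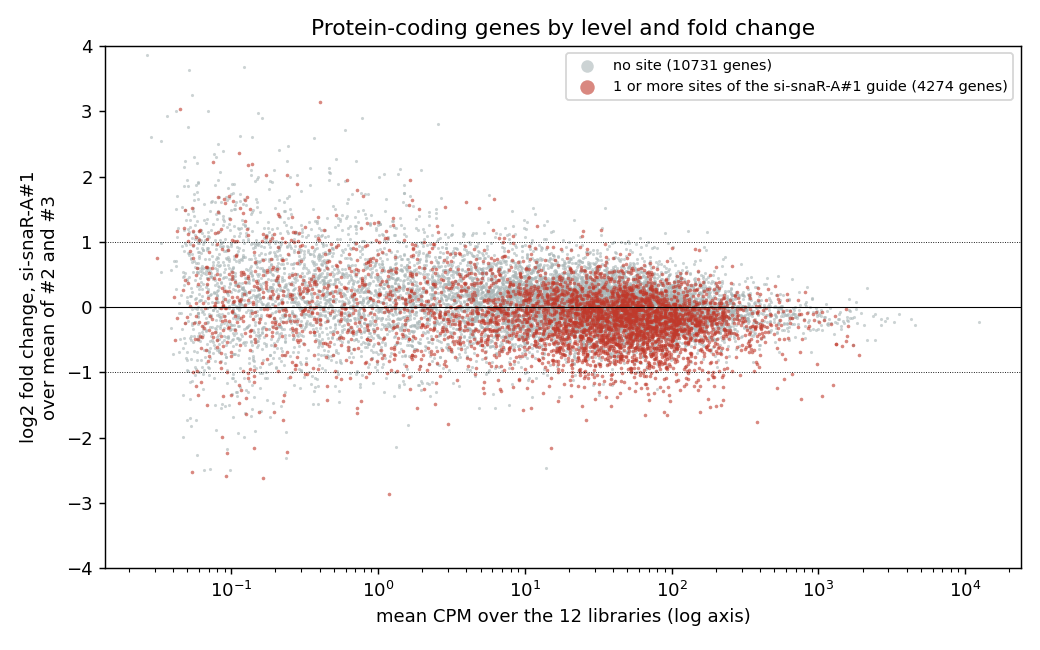
Log2 fold change of siRNA 1 over the mean of siRNAs 2 and 3 (y axis, cut at 4, which leaves out 22 genes) against mean CPM over the 12 libraries (x axis, log scale) for protein-coding genes with a 3′ UTR. Red points are the 4274 genes with a site of the siRNA 1 guide, and dotted lines mark 2-fold. Above a mean of 5 CPM the points under the lower line are mostly red.

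The number and the kind of site moved with the shift. With 1 site (2772 genes) the median was -0.12, with 2 (922 genes) -0.23 and with 3 or more (580 genes) -0.21, against 0.04 with none. Median 3′ UTR lengths were 2393.5, 3717, 5660.5 and 900 bases in the same order. The number of sites and 3′ UTR length were therefore not separated here. The 8-base form (2315 genes) had a shift of -0.23 from the genes that lack the 7-base word. The 7-base form that lacks pairing at position 8 but has the A (2054 genes without the main word) had a median of -0.02, and the 6-base form (1986 genes) one of 0.01. Genes that lack all of these forms (6691) had a median of 0.06, so the shifts of the shorter forms were -0.08 and -0.05, smaller than that of the main word.

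**Figure D3:**
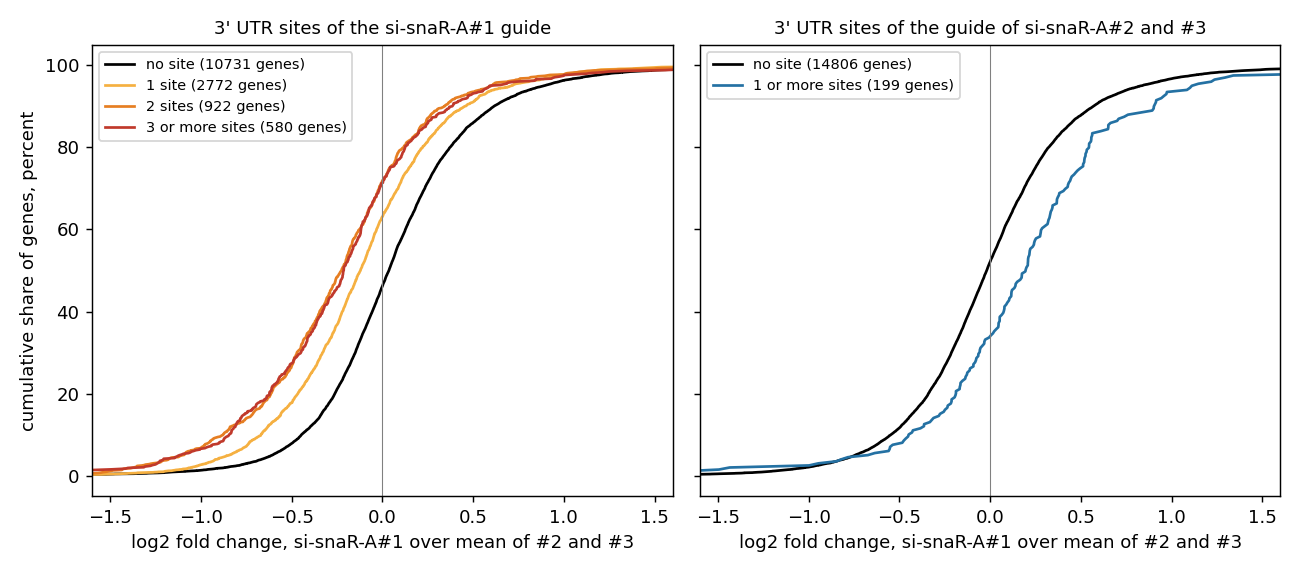
Cumulative share of protein-coding genes (y axis, percent) by log2 fold change of siRNA 1 over the mean of siRNAs 2 and 3 (x axis). On the left, genes with 1, 2 and 3 or more sites of the siRNA 1 guide lie to the left of the 10731 genes with none. On the right, the 199 genes with a site of the other guide lie to the right of the 14806 without.

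Base composition moved with the same measure. The site is rich in A, and mRNAs that hold it had longer 3′ UTRs (median 2963 against 900 bases) with less G and C (median 38.6% against 45.2%). Genes were split into 4 groups of 3751 by 3′ UTR GC content. In the group with the least GC, 1951 were lower and 511 higher, with a median of -0.18. In the group with the most, 467 were lower and 1633 higher, with a median of 0.18. Within these groups the site shift remained negative, at -0.17, -0.11, -0.11 and -0.10 from lowest to highest GC. Within 4 groups by 3′ UTR length it was -0.33, -0.27, -0.23 and -0.16 from shortest to longest, and after removal of a trend with GC content and length in each library it was -0.10 over all genes. Genes without a site thus also followed the GC trend, from a median of -0.13 in the first group to 0.19 in the last, and the origin of that trend was not tested.

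**Figure D4:**
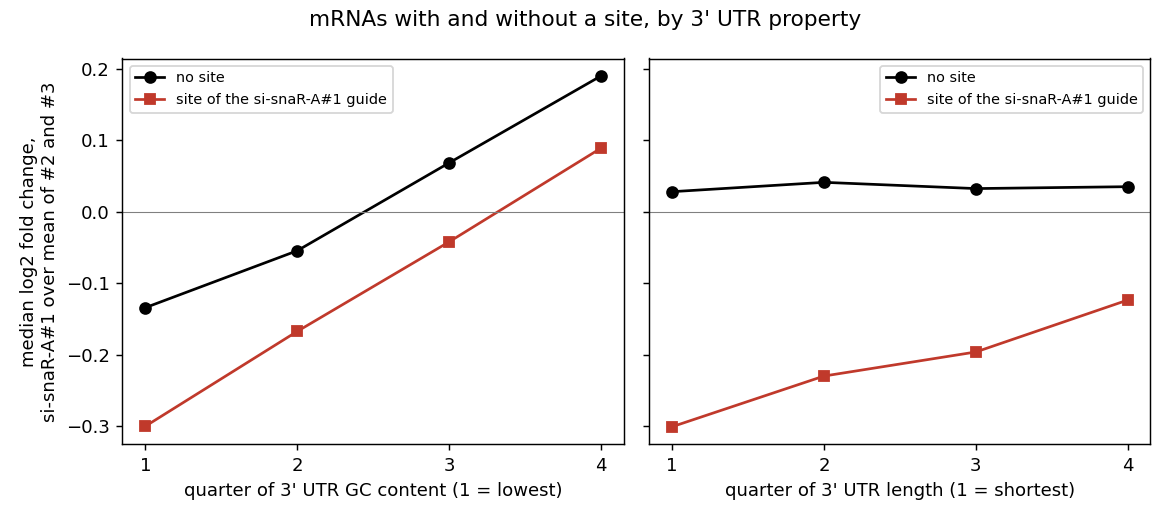
Median log2 fold change of siRNA 1 over the mean of siRNAs 2 and 3 (y axis) for mRNAs with (red) and without (black) a site of the siRNA 1 guide, in 4 groups by 3′ UTR GC content (left) and 3′ UTR length (right). The red medians lie below the black in all 8 groups, and both rise with GC content.

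For the seed that siRNAs 2 and 3 have in common, the shift had the other sign. Its word is far rarer, in 199 of the 15005 3′ UTRs (1.33%). Of these 199 mRNAs, 47.2% were higher and 19.1% lower with siRNA 1, and their median was 0.20, against -0.02 for the other genes. Their 3′ UTRs were longer (median 2840 against 1319 bases), with more G and C (median 45.3% against 42.4%). Within the 4 groups by 3′ UTR GC content the shift was 0.30, 0.16, 0.17 and 0.09 from lowest to highest. The cause of the shift was not tested. Set against scramble, which all siRNA groups have as their control, the shift of these mRNAs was 0.03 with siRNA 1, -0.20 with siRNA 2 and -0.14 with siRNA 3. For mRNAs with a site of the siRNA 1 guide the same 3 shifts were -0.16, 0.03 and 0.04. Passenger strand words shifted less in the contrast, which averages siRNAs 2 and 3 though their passenger words differ. The shift was 0.00 for CCATGTG of siRNA 1 (2238 genes), 0.05 for TGTGGAC of siRNA 2 (1765 genes) and 0.11 for GTGGACC of siRNA 3 (1042 genes). Against siRNA 3 alone GTGGACC shifted by 0.16, as much as the guide word GTCGGAA at 0.16. With siRNA 3 against scramble the shift of GTGGACC was -0.08. Against siRNA 2 alone TGTGGAC shifted by 0.05 and GTCGGAA by 0.22.

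The 12 largest rises were smaller than the falls, from 2.30-fold to 3.30-fold, and included regulators of germ cells and development. NANOS1 (ENSG00000188613, chromosome 10, 119029714 to 119033730), an RNA-binding repressor of translation in the germ line, had 12.3, 11.6 and 11.3 CPM with siRNA 1 and between 2.76 and 4.13 CPM in the 6 other siRNA libraries. Scramble held between 3.45 and 4.44 CPM, so siRNA 1 stood alone, and the log2 fold change was 1.72 (SE 0.10, edgeR adjusted p 2.4e-08). Its exons overlap those of EIF3A. NR6A1 (ENSG00000148200, chromosome 9, 124517275 to 124771311), an orphan nuclear receptor of early development, had 76.6, 64.2 and 63.9 CPM with siRNA 1. In the 6 others it had between 19.04 and 27.7 CPM and in scramble between 22.6 and 24.1 CPM (log2 fold change 1.52, SE 0.07, edgeR adjusted p 2.5e-09). SOWAHA, an ankyrin repeat protein, rose to 22.1 ± 1.86 from 7.73 ± 0.827 CPM, and GPR50, an orphan receptor related to the melatonin receptors, to 15.9 ± 1.17 from 5.72 ± 0.374 CPM (SD, n = 3 and 6).

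Matrix, guidance and cell death genes were among the others. P3H2, which hydroxylates prolines of basement membrane collagen, rose to 10.3 ± 0.395 from 4.18 ± 0.377 CPM, and THSD4, a protein of the extracellular matrix, to 18.1 ± 1.26 from 7.19 ± 0.546 CPM (SD, n = 3 and 6). HRK, a BH3-only protein that promotes apoptosis, rose to 21.6 ± 0.916 from 9.14 ± 0.380 CPM and was 8.495 ± 0.544 CPM in scramble. SYNGR3, a synaptic vesicle protein, rose to 12.6 ± 0.281 from 5.49 ± 0.648 CPM, the homeobox gene NKX1-2 to 22.6 ± 1.66 from 9.44 ± 0.873 CPM, and CYB561D1 to 20.9 ± 0.821 from 7.93 ± 1.63 CPM. Exons of GPR50, THSD4, NKX1-2 and RGMA overlap those of another annotated gene.

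For TBC1D13 the rise was largely a difference between the other siRNAs and scramble, and for RGMA it was so in part. TBC1D13 (ENSG00000107021, chromosome 9), a GTPase activator for Rab proteins, had 33.0, 33.0 and 30.9 CPM with siRNA 1 and 28.3, 28.2 and 27.8 CPM in scramble. It had 14.3, 13.6 and 12.8 CPM with siRNA 2 and 11.3, 12.5 and 12.3 CPM with siRNA 3. The log2 fold change was 1.34 in the contrast (SE 0.04, edgeR adjusted p 3.4e-10) and 0.20 against scramble (edgeR adjusted p 0.0063). It is the only 1 of the 24 genes with a site of the guide of siRNAs 2 and 3, in the 3′ UTR at chr9:128808981-128809007 (hg38, plus strand), printed with the word in capitals because it separates this rise from the others.

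TBC1D13 site: tgagcccaggGTCGGAAcccattgctt

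RGMA, a repulsive guidance molecule and co-receptor of bone morphogenetic proteins, had 22.6 ± 0.461 CPM with siRNA 1, 9.07 ± 0.925 in the 6 others and 15.8 ± 0.477 in scramble, and holds neither word. Its log2 fold change was 1.32 in the contrast and 0.52 against scramble.

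lncRNA genes were seldom lower, and so were protein-coding genes of low level. The median level of the lncRNAs was 0.279 CPM. In the lowest of 4 groups of protein-coding genes by mean CPM (median 0.431 CPM), 23.4% were higher and 11.1% lower. Of 4728 lncRNA genes tested, 1292 were higher and 424 lower with siRNA 1, 579 and 87 of them over 2-fold, with a median of 0.24. The shares were 27.3% and 8.97%, against 26.5% and 25.5% of all genes, whereas 4106 of 15075 protein-coding genes were higher and 4931 lower, with a median of -0.02. Against scramble the lncRNA median was 0.03, and 578 lncRNAs were particular and higher and 222 particular and lower. RNF139-DT (ENSG00000245149) had 4.73, 5.26 and 4.99 CPM with siRNA 1 and between 0.07 and 0.69 CPM in the 6 other siRNA libraries (log2 fold change 3.56, SE 0.50, edgeR adjusted p 5.6e-05). ENSG00000287737 rose to 7.14 ± 2.07 from 1.69 ± 0.207 CPM and ENSG00000291081, whose exons overlap ALG1L2, to 3.53 ± 0.181 from 0.854 ± 0.354 CPM (SD, n = 3 and 6). The largest falls were in ENSG00000273284, LINC00467 and DNAH10OS, with log2 fold changes of -1.67, -1.65 and -1.48 and edgeR adjusted p of at most 3.3e-06. Exons of DNAH10OS overlap those of DNAH10. LINC00467 had 1.81 ± 0.228 CPM with siRNA 1, 5.72 ± 0.925 in the 6 others and 6.51 ± 0.455 in scramble.

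Among protein-coding genes, those with 1 exon were more often higher (182 higher and 38 lower of 386, median 0.32, and 0.27 against scramble). In 4 groups by mean CPM, from lowest to highest, 11.1%, 28.4%, 40.8% and 50.6% were lower and 23.4%, 35.1%, 29.4% and 21.1% were higher. The share of lower calls thus increased with level and that of higher calls did not fall in order. The medians went from 0.16 in the first group to -0.12 in the last, but against scramble they were -0.09 and -0.03, the other way round. By chromosome, medians were highest on chromosomes 16 and 22 (0.13 and 0.12) and lowest on chromosome 4 (-0.14), apart from the mitochondrial genome at -0.26.

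Gene lists describe how the members of a pathway moved. Among the genes named from them, exons of ARF4, BBC3, CACNG4, CDH2, DDX6, DICER1, GTF3A, H2BC26, HNRNPA2B1, ID2, ITGB1, MAP1LC3B, NOP16, NRARP, PABPC1, PABPC4, PGK1, RIGI, RPSA, SLC7A5, SNAPC3, SNHG19, SNHG4, SRSF9, TBK1, WDR1 and XPO5 also overlap another annotated gene. Shares are to be read against all genes tested, where 26.5% were higher, 25.5% lower and the median was 0.03. Most lists hold protein-coding genes, of which 27.2% were higher and 32.7% lower, with a median of -0.02. In the highest of 4 groups of these by mean CPM, 21.1% were higher and 50.6% lower, with a median of -0.12. A list of abundant genes with values near these did not stand apart from genes of its level. The secretory pathway was lower in nearly every member. Of 34 genes of transport between endoplasmic reticulum and Golgi, 29 were lower, 18 of them particular to siRNA 1, and 0 higher, with a median of -0.41 (-0.14 against scramble). ARF4, a GTPase that recruits vesicle coats, fell to 110 ± 7.45 from 232 ± 17.1 CPM, with 191 ± 11.04 in scramble, and SEC22B, a vesicle fusion SNARE, to 80.8 ± 1.09 from 158 ± 4.65 CPM (SD, n = 3, 6 and 3). All 10 of its members with a siRNA 1 guide site were lower, and so were 19 of the 24 without, with medians of -0.45 and -0.37. Of 29 targets of the unfolded protein response, 19 were lower, 5 particular, and 6 higher (median -0.29, but -0.04 against scramble). HSPA5, the main chaperone of the endoplasmic reticulum, had 551 ± 28.4 CPM with siRNA 1, 1412 ± 79.95 in the 6 others and 841 ± 66.2 in scramble, so the 2 sides lay on either side of scramble. Its 3′ UTR holds 1 site, as do those of ARF4 and SEC22B.

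Sterol synthesis and its control fell as well. Of 25 genes of cholesterol synthesis, 18 were lower and 2 higher, 12 of the falls particular, with a median of -0.30 (-0.12 against scramble). SC5D, a late enzyme of the pathway, had 90.2 ± 2.91 CPM against 257 ± 8.79 in the 6 others and 204 ± 5.85 in scramble (log2 fold change -1.51, SE 0.03, edgeR adjusted p 4.6e-11), and holds 2 sites. INSIG1, which retains the sterol sensor in the endoplasmic reticulum, had 403 ± 32.2, 1068 ± 51.5 and 509 ± 22.3 CPM in the same order. Median changes of the 8 list members with a site and the 17 without were -0.73 and -0.23. Fatty acid synthesis genes divided evenly (6 higher and 6 lower of 24).

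Hypoxia targets had the lowest median of all lists. Of 25, 19 were lower, 15 of them particular, and 3 higher, with a median of -0.45 (-0.67 against scramble). Beside MXI1, BNIP3, a mitochondrial autophagy receptor, fell to 93.1 ± 8.25 from 219 ± 46.7 CPM, with 241 ± 13.0 in scramble. The reference siRNAs differed for BNIP3, at 260 ± 13.5 CPM with siRNA 2 and 178 ± 13.0 with siRNA 3. EPAS1, a hypoxia-inducible factor subunit, rose to 65.0 ± 2.88 from 53.2 ± 3.57 CPM. The 10 members with a site had a median of -0.86 and the 15 without one of -0.30. Glycolysis genes, which share regulators with this list, were lower in 10 of 19 cases and higher in 2 (median -0.25), but their median was -0.29 against siRNA 2 and 0.01 against siRNA 3, so it rested on siRNA 2. PGK1, which makes ATP in glycolysis, fell to 615 ± 47.9 from 998 ± 117 CPM.

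Innate immune genes divided by list. Of 35 interferon response genes, 23 were lower, 17 particular, and 1 higher, with a median of -0.41 (-0.51 against scramble) and a median level of 4.88 CPM. DDX60, a helicase of antiviral defence, fell to 2.08 ± 0.192 from 6.10 ± 0.329 CPM with 5.23 ± 0.0103 in scramble, and SAMD9 to 0.355 ± 0.0465 from 1.57 ± 0.144 CPM. The 1 rise was RIGI, a sensor of viral RNA, at 2.92 ± 0.119 against 0.942 ± 0.352 CPM, with 1.98 ± 0.132 in scramble. In this list 5 of the 6 members with a site and 18 of the 29 without were lower. Of 17 genes of RNA sensing, 8 were lower and 4 higher. TLR3, the endosomal receptor for double-stranded RNA, had 0.188 ± 0.0470 CPM, against 0.854 ± 0.112 with siRNA 2 and 2.24 ± 0.731 with siRNA 3. The kinase TBK1 had 35.8 ± 0.0596 against 60.8 ± 2.50 CPM. Targets of NF-κB moved up instead, 11 of 19 higher, 3 particular, and 1 lower (median 0.50, but 0.10 against scramble). Their median level was 1.27 CPM. The chemokines CXCL1 and CXCL2 rose to 1.61 ± 0.135 from 0.340 ± 0.0426 CPM and to 1.23 ± 0.137 from 0.320 ± 0.0536 CPM, while NFKB1, which holds 1 site, fell to 12.8 ± 0.582 from 21.9 ± 1.55 CPM.

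Translation genes parted by class. Of 84 cytosolic ribosomal protein genes, 59 were lower, 36 particular, and 2 higher, with a small median of -0.17 (-0.15 against scramble). RPSA had 1168 ± 58.6 CPM against 1672 ± 30.2 in the 6 others. Ribosome biogenesis genes went up, 34 of 48 higher, 23 particular, and 8 lower, with a median of 0.19 (0.22 against scramble). NOP16 and RRP9, nucleolar assembly factors, rose to 46.1 ± 2.32 from 26.9 ± 1.71 CPM and to 14.5 ± 0.611 from 9.30 ± 0.494 CPM. Host genes of small nucleolar RNAs were higher in 12 of 22 cases and lower in 2 (median 0.23), led by SNHG19, at 10.4 ± 0.916 against 3.05 ± 0.320 CPM, and SNHG4, at 83.6 ± 1.89 against 38.7 ± 1.17 CPM. The cytosolic poly(A) binding protein PABPC1, with 2 sites, fell to 645 ± 36.3 from 1471 ± 26.3 CPM (log2 fold change -1.19, SE 0.04, edgeR adjusted p 5.6e-10), and PABPC4 to 155 ± 0.824 from 252 ± 6.52 CPM. In the list of translation initiation factors that holds both, 16 of 38 were lower and 9 higher (median -0.08, but 0.01 against scramble). Aminoacyl-tRNA synthetases were lower in 15 of 23 cases and higher in 5 (median -0.18, but -0.02 against scramble). RARS1 was at 126 ± 1.32 against 239 ± 5.06 CPM and VARS1 at 162 ± 13.8 against 109 ± 3.65 CPM.

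Targets of ATF4, the factor of the integrated stress response, were lower in 26 of 36 cases, 13 particular, and higher in 3, with a median of -0.32 (-0.12 against scramble). DDIT4, an inhibitor of mTORC1 signalling, fell to 174 ± 17.8 from 291 ± 31.7 CPM, with 226 ± 14.8 in scramble. Among the 3 rises were the amino acid transporters SLC7A5 and SLC7A1, which rose to 222 ± 15.4 from 100 ± 13.1 CPM and to 197 ± 13.6 from 126 ± 18.6 CPM. Targets of p53 divided evenly, 9 higher and 10 lower of 29 (median 0.00). The cyclin gene CCNG1 fell to 386 ± 31.6 from 621 ± 30.5 CPM and BBC3, a BH3-only protein, rose to 11.5 ± 1.01 from 7.45 ± 0.354 CPM.

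RNA processing genes are of interest because snaR-A was studied as a partner of the splicing machinery. Of 23 SR proteins and their kinases, 18 were lower, 15 particular, and 0 higher, with a median of -0.31 (-0.31 against scramble, and -0.16 in the contrast after removal of the GC content and length trend). SRSF9 fell to 148 ± 6.76 from 229 ± 9.71 CPM and the kinase CLK2 to 22.7 ± 2.30 from 34.7 ± 3.67 CPM. U2 snRNP genes did not follow, with 5 higher and 1 lower of 12 and a median of 0.04 (0.25 against scramble). SF3B3 rose to 610 ± 15.1 from 490 ± 30.6 CPM. Other spliceosome genes had 13 higher and 13 lower of 44. Of 26 hnRNP genes, 10 were lower and 4 higher, HNRNPA2B1 falling to 1636 ± 102 from 2319 ± 129 CPM and PTBP2 to 38.2 ± 0.579 from 59.0 ± 6.34 CPM. Nonsense-mediated decay factors had 10 higher and 2 lower of 19 (median 0.17).

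Genes of the small RNA machinery were called in both directions. Of 27 members, 12 (44.4%) were lower, 10 particular, and 8 (29.6%) higher, at a median level of 91.5 CPM. In the highest group of protein-coding genes by mean CPM, 50.6% were lower and 21.1% higher, so the list did not stand apart by its number of calls. Its median of -0.15 became -0.03 after removal of the GC content and length trend. DICER1, the nuclease that makes microRNAs, had 93.2 ± 4.60 CPM against 202 ± 35.0 in the 6 others and 211 ± 17.2 in scramble (log2 fold change -1.11, SE 0.09, edgeR adjusted p 3.0e-07), and holds 3 sites of the siRNA 1 guide. DDX6, a helicase of mRNA silencing and decay, fell to 139 ± 6.28 from 267 ± 14.4 CPM and holds 2. XPO5, the exporter of microRNA precursors, rose to 199 ± 6.09 from 151 ± 6.70 CPM and holds none. The 14 members with a site had a median of -0.42 and the 13 without one of 0.16. RNA polymerase III genes, whose product snaR-A is, were divided in the same way. Of 29, 14 were higher and 11 lower, with medians of -0.36 in the 12 with a site and 0.16 in the 17 without. SNAPC3, of the factor that binds small nuclear RNA promoters, fell to 43.2 ± 2.01 from 101 ± 10.0 CPM. GTF3A, which binds 5S RNA genes, rose to 86.1 ± 3.87 from 62.8 ± 10.6 CPM.

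**Figure D5:**
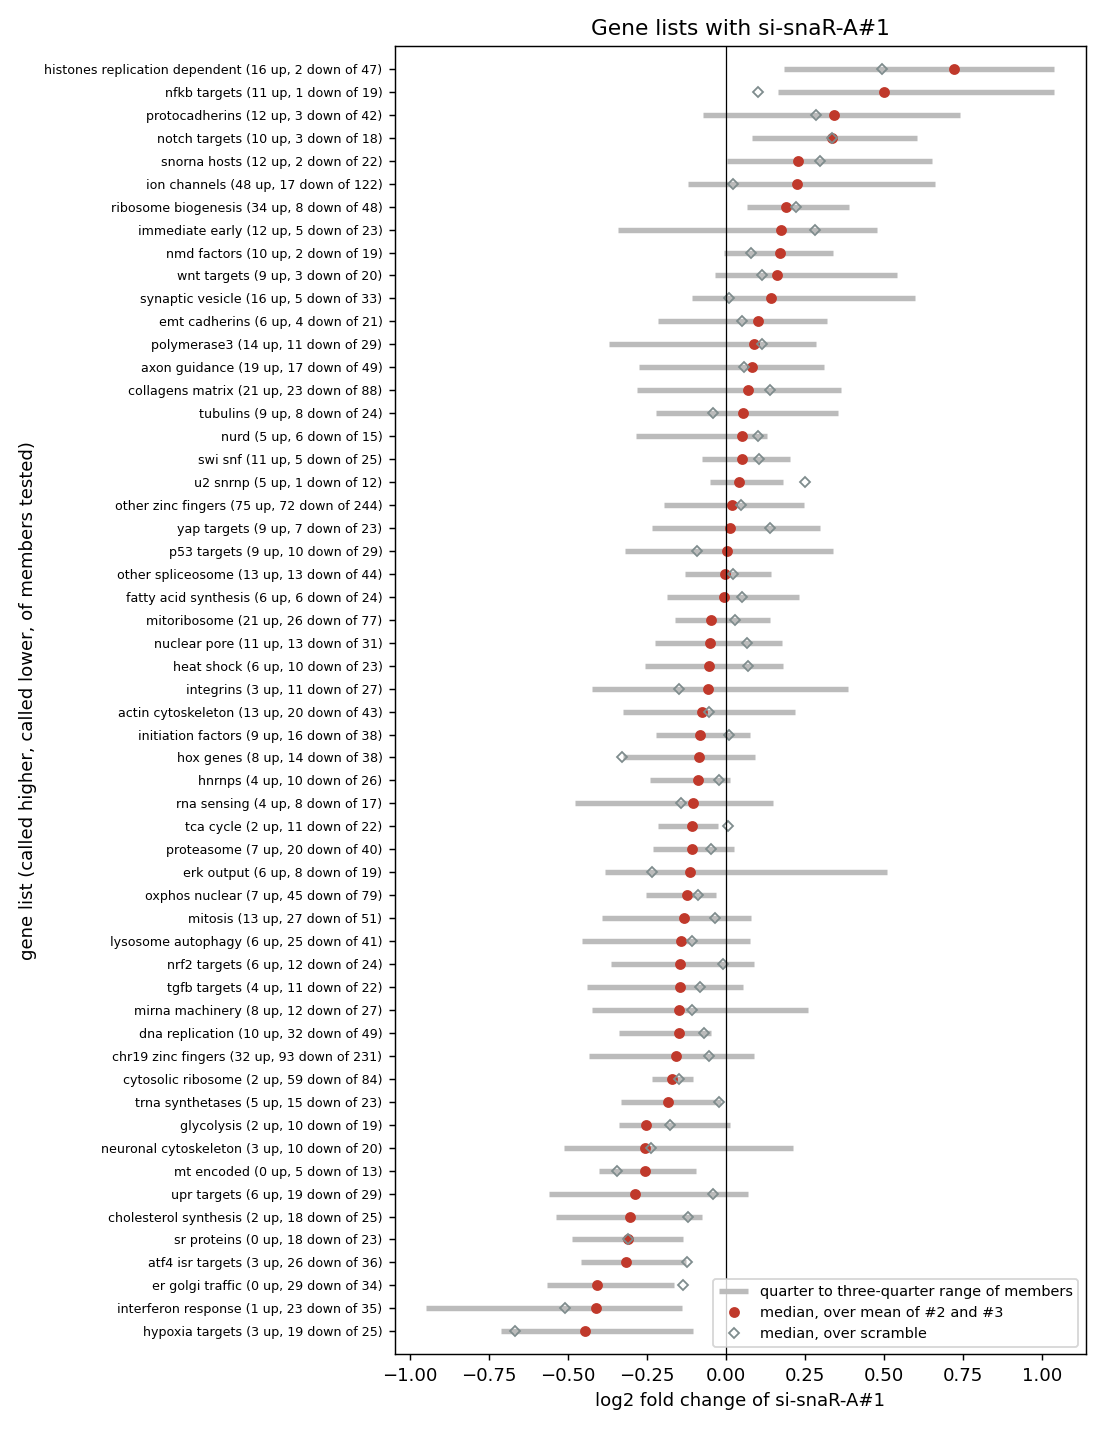
Median log2 fold change of siRNA 1 (x axis) for 56 gene lists, over the mean of siRNAs 2 and 3 (filled circles) and over scramble (open diamonds). Grey bars span the middle of the members in the first comparison, from the lower to the upper quartile, and labels give the members called higher, called lower and tested. Hypoxia targets at -0.45, interferon response genes and endoplasmic reticulum to Golgi transport lie lowest, and replication-dependent histones and NF-κB targets highest.

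Cell cycle lists had more falls than rises, at median levels of 98.4 CPM for DNA replication and 131 CPM for mitosis. Of protein-coding genes in the highest group by mean CPM, 50.6% were lower. Of 49 DNA replication genes, 32 were lower and 10 higher (median -0.15, but -0.07 against scramble). UHRF1, which maintains DNA methylation, was at 139 ± 6.15 against 101 ± 4.77 CPM. Of 51 mitosis genes, 27 were lower and 13 higher. Their median of -0.13 (-0.03 against scramble) became 0.00 after removal of the GC content and length trend. NEK2, a centrosomal kinase, fell to 32.4 ± 1.87 from 65.8 ± 5.92 CPM, and CDC20, an activator of the anaphase-promoting complex, rose to 113 ± 4.51 from 78.3 ± 3.21 CPM. Replication-dependent histones had the highest median, 0.72 (0.50 against scramble), with 16 of 47 higher and 2 lower. Their mRNAs lack a poly(A) tail as a rule, the median level in these poly(A)+ libraries was 0.430 CPM, and 4 genes were particular and higher, of which H2BC26 was at 7.14 ± 1.38 against 1.13 ± 1.25 CPM. Of 231 zinc finger genes of chromosome 19, 93 were lower and 32 higher (median -0.16, and -0.06 after removal of that trend), whereas zinc finger genes elsewhere had 72 lower and 75 higher of 244.

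Most mitochondrial and degradation lists had more falls than rises. So did protein-coding genes of the highest group by mean CPM (61.0 CPM or more), with 50.6% lower and 21.1% higher. Median levels of the oxidative phosphorylation and proteasome lists, 91.2 and 113 CPM, lay in that range. Nuclear genes of oxidative phosphorylation were lower in 45 of 79 cases and higher in 7, with a median of -0.12 (-0.06 after removal of the GC content and length trend), and only 3 of them hold a site. The 13 mitochondrially encoded genes had 5 lower, 0 higher and none particular, with a median of -0.26 (-0.35 against scramble) and MT-ND1 at 895 ± 128 against 1286 ± 199 CPM. Mitochondrial ribosomal proteins had 21 higher and 26 lower of 77. Proteasome genes were lower in 20 of 40 cases and higher in 7 (median -0.11, but -0.05 against scramble). Lysosome and autophagy genes were lower in 25 of 41 cases and higher in 6 (median -0.14). MAP1LC3B, a ubiquitin-like protein of autophagosomes, fell to 57.1 ± 2.08 from 109 ± 12.9 CPM, and CTSL, a lysosomal protease, rose to 72.1 ± 3.82 from 36.6 ± 7.99 CPM.

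Among signalling lists, targets of Notch were higher in 10 of 18 cases and lower in 3, with a median of 0.34 in the contrast and against scramble. The ligand gene DLL4 rose to 2.96 ± 0.217 from 1.00 ± 0.0915 CPM and NRARP, a feedback inhibitor of the pathway, to 95.1 ± 0.109 from 50.4 ± 2.64 CPM. HES1, a repressor that Notch induces, fell to 94.9 ± 6.90 from 120 ± 9.96 CPM, and 1 other target was lower by over 2-fold. Wnt targets had 9 higher and 3 lower of 20 (median 0.16). TGF-β and BMP targets had 11 lower and 4 higher of 22 (median -0.14), with the inhibitor of differentiation ID4 at 51.2 ± 1.01 against 109 ± 3.84 CPM and ID2 at 134 ± 1.40 against 241 ± 8.62 CPM. Immediate early genes had 12 higher and 5 lower of 23, and their median of 0.17 (0.03 against siRNA 2 and 0.30 against siRNA 3) became 0.00 after removal of the GC content and length trend. Outputs of ERK signalling had 6 higher and 8 lower of 19, and YAP targets 9 and 7 of 23.

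Adhesion and neuronal genes went in both directions. ITGB1, the integrin subunit that pairs with most alpha chains, fell to 229 ± 16.8 from 450 ± 8.27 CPM with 320 ± 11.7 in scramble, and 11 of 27 integrin genes were lower and 3 higher. Of 43 actin cytoskeleton genes, 20 were lower and 13 higher. All 9 calls among the 10 members with a site were falls (median -0.62), and the 33 without had 11 lower and 13 higher (median 0.03). ACTR3, of the Arp2/3 complex that nucleates actin branches, fell to 93.8 ± 7.31 from 264 ± 9.29 CPM and WDR1, a cofactor of actin disassembly, rose to 105 ± 7.74 from 56.8 ± 9.50 CPM and holds 1 site of the other guide. In the cadherin and mesenchymal list (6 higher and 4 lower of 21), N-cadherin, encoded by CDH2, fell to 93.9 ± 7.38 from 153 ± 5.85 CPM, and the tight junction gene CLDN4 rose to 1.59 ± 0.128 from 0.241 ± 0.0537 CPM. Ion channel genes were higher in 48 of 122 cases and lower in 17, with a median of 0.22 that was 0.02 against scramble. CACNG4, a calcium channel gamma subunit, rose to 2.43 ± 0.0503 from 0.591 ± 0.0983 CPM. Synaptic vesicle genes had 16 higher and 5 lower of 33 (median 0.14, but 0.01 against scramble). UNC13A, which primes vesicles, rose to 2.88 ± 0.168 from 0.667 ± 0.0709 CPM. Protocadherins had 12 higher and 3 lower of 42, and neuronal cytoskeleton genes 3 higher and 10 lower of 20. GAP43, a protein of axon growth cones, fell to 2.67 ± 0.389 from 6.31 ± 0.575 CPM.

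Further lists had calls in both directions, to be read against 26.5% higher and 25.5% lower over all genes. In the highest group of protein-coding genes by mean CPM these shares were 21.1% and 50.6%. The citric acid cycle list, with a median level of 109 CPM, is to be read against those. Heat shock genes had 6 higher and 10 lower of 23, NRF2 targets 6 and 12 of 24 (median -0.14, but -0.01 against scramble), citric acid cycle genes 2 and 11 of 22 (median -0.11, but 0.01 against scramble), and HOX genes 8 and 14 of 38. NuRD subunits had 5 higher and 6 lower of 15, SWI/SNF subunits 11 and 5 of 25 (median 0.05), nuclear pore genes 11 and 13 of 31, collagens and matrix genes 21 and 23 of 88, tubulins 9 and 8 of 24, and axon guidance genes 19 and 17 of 49.

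Genes central to the study of snaR-A were not all alike between the siRNAs. SSB, which encodes the La chaperone of RNA polymerase III transcripts, had 225.3, 230.9 and 237.9 CPM with siRNA 1, between 318.4 and 359.5 CPM with siRNA 2 and between 393.0 and 415.7 CPM with siRNA 3. It fell in the contrast (log2 fold change -0.69, SE 0.04, edgeR adjusted p 3.1e-08) and holds 1 site. ETV1, an ETS family transcription factor with 3 sites, had 1.04, 0.71 and 0.99 CPM against between 2.89 and 3.33 CPM in the 6 others and between 4.42 and 5.02 CPM in scramble. G3BP2, a stress granule protein with 1 site, was higher in all 9 siRNA libraries than in scramble (137.1 to 140.8 CPM), and with 291.6 to 327.8 CPM in siRNA 1 it was lower than the 442.8 to 454.7 CPM of the others. OGFR was higher with siRNA 1 by 0.32 on the log2 scale (SE 0.03, edgeR adjusted p 5.4e-06) and MCRIP2 by 0.43 (SE 0.07, edgeR adjusted p 1.1e-04). SF3B2, a U2 snRNP subunit, had 402 ± 9.37 against 384 ± 5.93 CPM and was not called (log2 fold change 0.06, SE 0.03, edgeR adjusted p 0.103), and nor was MTA1, a chromatin remodelling subunit, at 121 ± 6.86 against 124 ± 6.17 CPM (edgeR adjusted p 0.560). Exons of SSB, G3BP2, OGFR, MCRIP2, SF3B2 and MTA1 overlap those of another annotated gene.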

How the data were processed

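Poly(A)+ RNA after rRNA depletion was sequenced in 12 libraries, 3 per group, of which replicates were processed on the same day. P-values therefore measure the spread between these libraries, which may be technical. The authors trimmed reads with Trim Galore and quantified them with Salmon on hg38, and deposited estimated counts per gene, which were rounded to whole numbers here. Which transcriptome was used, how transcripts were summed per gene and whether strand was used are not given in the sources used here, so overlapping genes are uncertain. Of 63541 gene IDs, 58160 were matched to GENCODE 44.

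Totals were between 120.37 and 180.11 M counts. edgeR 4.0.16 (R 4.3.3) kept 21999 genes with filterByExpr, scaled libraries by TMM (factors between 0.956 and 1.09) and fitted all 12 libraries by quasi-likelihood, with siRNA 1 against the mean of siRNAs 2 and 3 as the contrast and Benjamini-Hochberg adjustment over all genes, at a threshold of 0.05. DESeq2 1.42.0 was an alternative. The code was tested on simulated counts. Replicate pairs differed by more than sampling noise (chi-square over its degrees of freedom, 12.5 to 59.8), so each library counted as 1 replicate.

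The named genes were the 12 largest rises and falls particular to siRNA 1 among protein-coding genes averaging at least 5 CPM, 3 and 3 among lncRNAs averaging at least 1 CPM, up to 2 largest rises and 2 largest falls among the called members of each list (the member of highest mean CPM where none was called), the 4 largest falls with a site, and 8 genes central to the study. Not all of these are named in the text. Some are not reported here. Gene IDs with 3 counts or fewer in a library and 1 CPM or more in another of its group were not named, apart from those 8. Members, lists and tests were chosen with earlier results of these data known. GENCODE 44 gave the 3′ UTRs, of the canonical transcript, and RefSeq the snaR-A genes. The siRNA strands were located by exact match to hg38, and printed letters are those of the reference. Lists, classes and sites were described without a test. snaR-A itself was not analysed here.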

Additional observations from a re-analysis of the deposited data

How the results depend on the processing

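The number of called genes lay between 9649 (edgeR exact test) and 11729 (upper quartile scaling) over all alternatives, and was 11324 with DESeq2. Upper quartile scaling moved the median of all genes from 0.03 to 0.09 and the share of higher calls from 51.0% to 58.9%. Leaving out 1 library gave between 10356 and 11507 calls. Taking out a trend with GC content and length kept 78.4% of the calls in the same direction, and testing genes averaging 1 CPM or more kept 79.1%. Replicate numbers did not pair the libraries (correlation of same-numbered libraries between -0.24 and 0.17), and with the replicate number as a block 11217 genes were called.

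The shift of mRNAs with a site of the siRNA 1 guide was -0.19. It was -0.10 without the GC content and length trend, and -0.21 for the 8-base site. The 7-base site of positions 2 to 7 with an A gave -0.0024 and the 6-base site 0.029, but the genes without these forms then include those with the full site. Against genes without the full site, an alternative chosen after seeing the data, the 8-base, shorter 7-base and 6-base forms gave -0.23, -0.066 and -0.033, and the last 2 gave -0.078 and -0.051 against genes without any of the forms, so the other sign of the 6-base site came from its comparator. From shortest to longest 3′ UTR it was -0.33, -0.27, -0.23 and -0.16, and from least to most GC -0.17, -0.11, -0.11 and -0.10. Leaving out 1 library gave between -0.21 and -0.18. The cause of these changes was not tested.

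Of 99 named genes, 97 kept direction and call in all 18 alternatives. MTA1, not called, changed sign under upper quartile scaling (0.020), the 1 CPM filter (0.0077) and on leaving out libraries (between -0.089 and 0.0012). SF3B2 was called under upper quartile scaling (0.12) and the 1 CPM filter (0.11). Of 60 lists, 44 kept the sign of their median in all 16 alternatives. Lists that did not include mitosis, translation initiation factors, integrins, heat shock, p53 targets, fatty acid synthesis, YAP targets, NuRD, nuclear pore, tubulins, axon guidance, mitochondrial ribosomal proteins, other spliceosome genes, and the immune and fibroblast markers. Without the GC content and length trend the medians of ion channels, proteasome, Wnt targets, TGF-β targets, U2 snRNP and mitochondrially encoded genes were 0.13, -0.06, 0.10, -0.22, 0.13 and -0.16. Depth limits the lowest genes, such as histones, protocadherins and chemokines.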
